A study of Mus musculus with 4 samples.

Results

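Conventional type 2 dendritic cells (cDC2) were described in single-cell RNA libraries of whole mouse lung. They numbered 758 of the 53463 cells kept in 4 libraries, 116 and 186 in the GAL libraries and 306 and 150 in the WT libraries. A kept cell had at least 300 detected genes and at most 20% of its unique molecular identifiers (UMIs) from mitochondrial DNA. The cDC2 cells were chosen by their UMIs. Each had at least 1 UMI in at least 2 of the 6 panel genes Cd209a, Clec10a, Mgl2, Ccl17, Flt3 and Cd209d, with Cd209a or Flt3 among them, and at least 1 UMI of H2-Aa. Cells with more than 2 UMIs of C1qa, C1qb and C1qc together, with any UMI of Xcr1, Clec9a, Siglech, Cd3e, Cd79a or Cdh5, or with more than 2 of the 6 maturation genes Ccr7, Fscn1, Ccl22, Cacnb3, Nudt17 and Il4i1 were left out.

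Whole lungs came from Galt gene-edited mice (GAL, 2 libraries) and from wild-type mice (WT, 2 libraries), with no treatment named. The product of Galt is an enzyme that cells need to break down galactose. The labels give neither the nature of the edit nor the strain, age or sex of the mice, nor how many mice stand behind a library. Lungs were digested with collagenase and DNase and loaded on a droplet system, with no sorting step named. Because separate animals are not named, every p-value here measures the spread between these 4 samples, which may be technical. The cDC2 cells carried 1036593 and 1644486 UMIs in all in the GAL libraries and 2483332 and 1127525 in the WT libraries, with medians per cell of 8420 and 8606 UMIs in GAL libraries and 7578 and 7235 UMIs in WT libraries.

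Dendritic cells sample antigen in tissues, carry it to lymph nodes and present it to T cells. The type 2 lineage depends on the growth factor receptor Flt3 and the transcription factor Irf4, carries integrins and C-type lectins shared with macrophages, and presents mainly on MHC class II to CD4 T cells. The type 1 lineage (cDC1) depends on Irf8 and Batf3 and is known for cross-presentation to CD8 T cells. Both mature into migratory cells that raise Ccr7, Fscn1 and Ccl22. Monocytes that enter inflamed tissue can take on many genes of type 2 dendritic cells.

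The genes that chose the cells are given first, as a description with no test. Levels in this section are CPM, the UMIs of a gene per 1000000 UMIs of the same cells of a library. Cd209a, a lectin receptor that binds mannose-rich glycans, had 759 and 429 CPM in GAL libraries, against 494 and 809.7 CPM in WT libraries. Mgl2 and Clec10a encode neighbouring lectins that bind galactose-type sugars. Mgl2 had 1029 and 900 CPM in GAL libraries, against 912 and 1399 CPM in WT libraries, and Clec10a had 138 and 112 CPM in GAL libraries, against 91.8 and 95.8 CPM in WT libraries. The GAL and WT libraries overlapped in Cd209a and Mgl2, and both GAL libraries lay above both WT libraries in Clec10a. Flt3, the receptor for the growth factor that maintains the lineage, had 70.4 and 99.7 CPM in GAL libraries, against 78.9 and 78.9 CPM in WT libraries. Ccl17, a chemokine that attracts Ccr4-bearing T cells, had 2457 and 2334 CPM in GAL libraries, against 4560.4 and 2734 CPM in WT libraries, with replicate 1 of WT above the other 3 libraries. The lectin Cd209d also stood highest there, with 25.1 and 35.9 CPM in GAL libraries, against 107 and 38.1 CPM in WT libraries. H2-Aa, the class II alpha chain that every cell had to carry, had 10855 and 10043 CPM in GAL libraries, against 8052 and 12422 CPM in WT libraries. Clec10a and Mgl2, and the members of the Cd209 family, are close paralogs, so reads could be split between them in the counting.

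Single marker genes were missing from many cells. A Cd209a UMI was found in 88.8 and 80.1 percent of cells in GAL libraries, against 83.7 and 89.3 percent of cells in WT libraries. An Mgl2 UMI was found in 77.6 and 82.8 percent of cells in GAL libraries, against 72.5 and 74 percent of cells in WT libraries, and a Clec10a UMI in 38.8 and 37.1 percent of cells in GAL libraries, against 30.1 and 33.3 percent of cells in WT libraries. The gate asks for these genes and so sets much of their shares. In T cells, which should lack these genes, the same shares were at most 0.571% for Cd209a, 1.24% for Mgl2 and 0.465% for Clec10a, at lower median depths of 3612 and 3114 UMIs in GAL libraries and 2346 and 2942 UMIs in WT libraries. Ccl17 was found in 1.71 and 3.98 percent of T cells in GAL libraries, against 9.21 and 1.86 percent of T cells in WT libraries. In cDC2 cells its share lay between 70 and 80.1%. All 6 panel genes were found together in 3 and 4 GAL cells and in 9 and 1 WT cells. Exactly 2, the fewest the gate allows, were found in 28 and 29 GAL cells and in 66 and 32 WT cells.

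The label was checked on genes that the gate did not use, again without a test. Irf4, the lineage's transcription factor, had 69.5 and 116 CPM in GAL libraries, against 79.7 and 59.4 CPM in WT libraries. It lay between 12.9 and 21.0 CPM in cDC1 cells, between 14.9 and 31.1 CPM in C1q macrophages and between 3.95 and 21.5 CPM in Ly6c2 monocytes, so that all 4 libraries of cDC2 cells lay above those of the 3 other types. Migratory dendritic cells, between 63.6 and 93.9 CPM, overlapped with cDC2 cells, and T cells, between 12.9 and 90.1 CPM, also carry the gene. Zbtb46, a transcription factor of the conventional dendritic lineages, stood between 17.7 and 30.4 CPM in cDC2 cells, between 11.8 and 18.7 CPM in cDC1 cells, which overlapped, and at most 4.77 CPM in C1q macrophages. Itgam, the CD11b integrin chain of type 2 cells and macrophages, stood between 102 and 145 CPM in cDC2 cells and between 7.13 and 16.1 CPM in cDC1 cells. Irf8, the factor of the type 1 lineage, ran the other way and lay between 43.2 and 68.5 CPM in cDC2 cells and between 489 and 652 CPM in cDC1 cells.

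Genes of the macrophage lineage gave a further check. Csf2rb, the shared receptor chain for GM-CSF, stood between 451 and 659.8 CPM in cDC2 cells and between 156 and 319 CPM in C1q macrophages. The macrophage colony-stimulating factor receptor Csf1r stood between 40.5 and 64.0 CPM in cDC2 cells and between 313 and 514 CPM in C1q macrophages, and both ranges lie far apart. H2-Ab1 and Cd74, the class II beta and invariant chains, stood between 8563 and 12383 CPM and between 19446 and 32173 CPM in cDC2 cells. The inflammatory cytokine Il1b stood between 1870.1 and 2937 CPM in cDC2 cells, between 633 and 836 CPM in cDC1 cells and between 1601 and 2056 CPM in C1q macrophages, which overlapped with cDC2 cells. Sirpa, often used to sort type 2 cells, overlapped with cDC1 cells and was higher in macrophages, being between 77.2 and 113 CPM in cDC2 cells, between 83.1 and 90.4 CPM in cDC1 cells and between 158 and 252 CPM in C1q macrophages. Klf4, a factor needed by one branch of type 2 cells, stood between 257 and 406 CPM in cDC2 cells, and between 392 and 655 CPM in C1q macrophages, the higher of the 2 in every library.

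**Figure D1:**
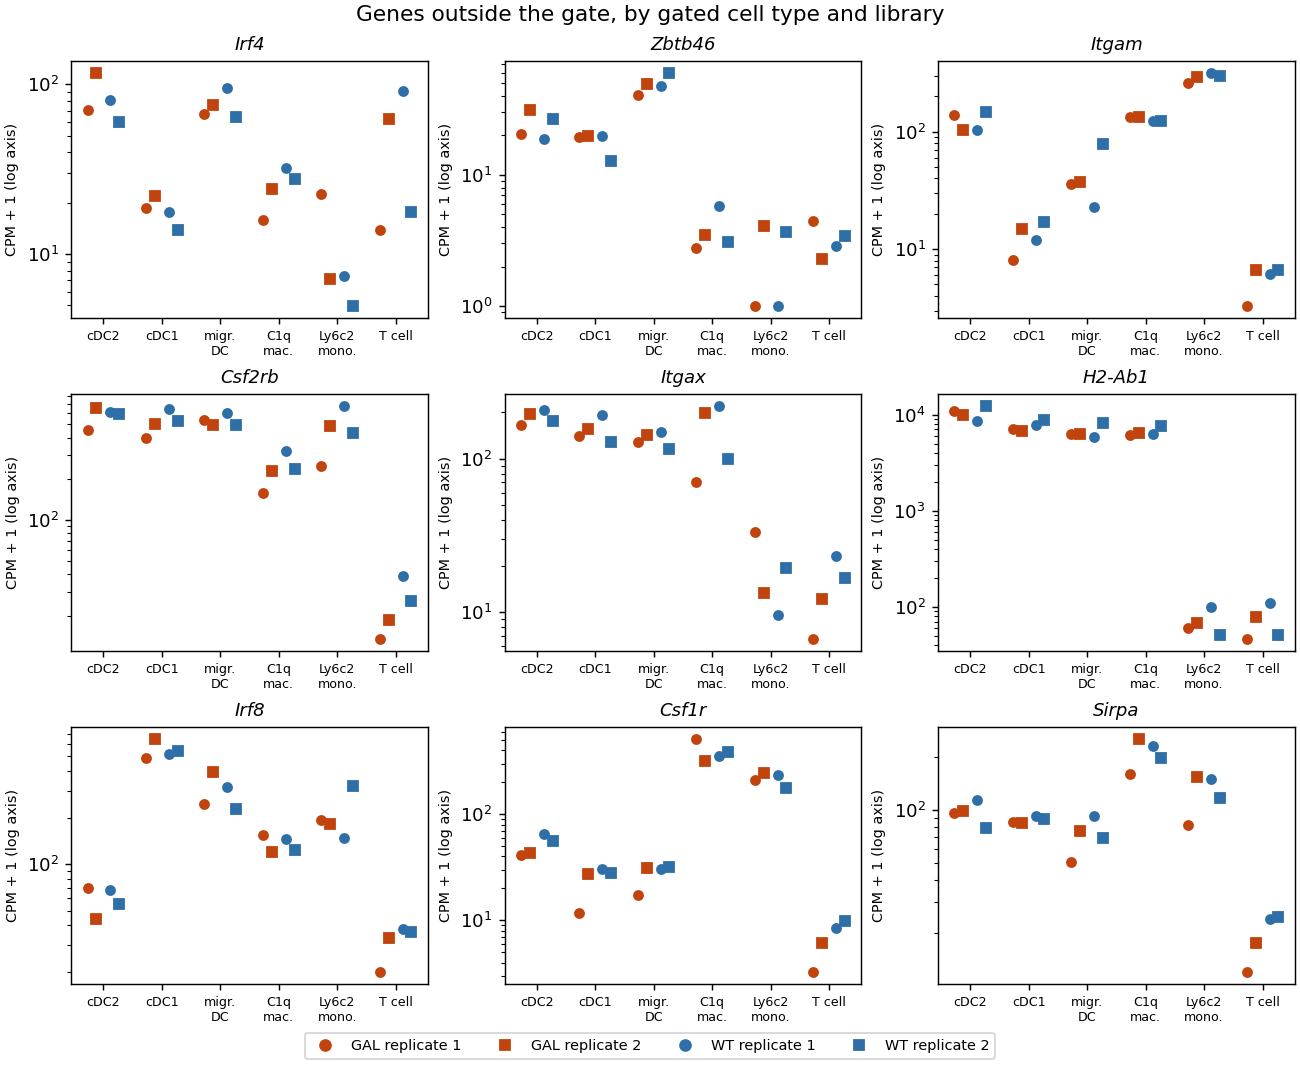
Levels of 9 genes that the cDC2 gate did not use, as CPM + 1 on a log axis, in 6 gated cell types; each point is 1 library, GAL in orange and WT in blue. Irf4 lies between 59.4 and 116 CPM in cDC2 cells and at most 21.0 CPM in cDC1 cells, and Csf1r is far lower in cDC2 cells than in C1q macrophages.

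Ear2, an eosinophil-associated ribonuclease that alveolar macrophages also make, was found in 66.4 and 69.4 percent of cells in GAL libraries, against 63.1 and 60 percent of cells in WT libraries. The same shares were between 4.03 and 9.21 percent in T cells and between 17.6 and 31.8 percent in C1q macrophages. All 4 libraries of cDC2 cells lay above all 4 of T cells, which were shallower. Chil3, a chitinase-like protein of alveolar macrophages, was found in 47.4 and 69.4 percent of cells in GAL libraries, against 82.4 and 35.3 percent of cells in WT libraries. In T cells it was found in 27.6 and 45.9 percent of T cells in GAL libraries, against 63.2 and 24.6 percent of T cells in WT libraries. The surfactant gene Sftpc of alveolar type 2 cells was found in 81.0 and 4.30 percent of cells in GAL libraries, against 29.1 and 21.3 percent of cells in WT libraries. In T cells it was found in 73.2 and 3.66 percent of T cells in GAL libraries, against 17.8 and 16 percent of T cells in WT libraries. T cells followed the same order of libraries as cDC2 cells in both genes, so their levels in cDC2 cells are not read as expression.

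The edges of the gate show what it divides. Cells with exactly 1 panel gene, which met every other condition, numbered 33 and 40 in GAL libraries, against 66 and 61 in WT libraries, and had 8.97 and 15.2 CPM of Irf4 in GAL libraries, against 21.6 and 22.6 CPM of Irf4 in WT libraries. Cells just inside, with exactly 2 panel genes, had 46.0 and 52.8 CPM of Irf4 in GAL libraries, against 38.8 and 14.1 CPM of Irf4 in WT libraries, and carried less Irf4 than cDC2 cells as a whole. Cells outside only because they held 3 to 5 C1q UMIs were few, with 4 and 4 in GAL libraries, against 1 and 4 in WT libraries. Cells outside with 6 or more C1q UMIs numbered 31 and 21 in GAL libraries, against 29 and 22 in WT libraries, and carried the macrophage apolipoprotein Apoe at 7072 and 3365 CPM in GAL libraries, against 3656 and 5276 CPM in WT libraries. Cells inside with 1 or 2 C1q UMIs had Apoe at between 60.8 and 322 CPM. Cells inside with 2 maturation genes numbered 31 and 75 in GAL libraries, against 82 and 42 in WT libraries. Cells left out because they held 3 numbered 4 and 33 in GAL libraries, against 56 and 15 in WT libraries. Irf4 stood between 75.0 and 138 CPM just inside and between 112 and 204 CPM just outside this edge, and the ranges overlap.

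The cDC2 cells were not uniform. Cd209a without Flt3 was found in 61 and 81 cells in GAL libraries, against 166 and 83 cells in WT libraries. Both genes were found in 42 and 68 cells in GAL libraries, against 90 and 51 cells in WT libraries, and Flt3 without Cd209a in 13 and 37 cells in GAL libraries, against 50 and 16 cells in WT libraries. The cells with Flt3 alone carried more of some genes of the type 1 lineage. In these cells Irf8 had 396 and 157 CPM in GAL libraries, against 243 and 151 CPM in WT libraries. In cells with both genes it lay between 16.2 and 44.5 CPM. Itgae, the CD103 integrin chain of cDC1 cells, had 141 and 75.3 CPM in GAL libraries, against 129 and 103 CPM in WT libraries among cells with Flt3 alone, while it lay between 7.72 and 33.9 CPM in cells with both. Cadm1, an adhesion molecule of cDC1 cells, had 84.8 and 39.3 CPM in GAL libraries, against 25.2 and 55.6 CPM in WT libraries among the first, and lay between 1.41 and 2.57 CPM in cells with both. All 4 libraries of cells with Flt3 alone lay above those of cells with both genes in these 3 genes, although Xcr1 and Clec9a UMIs were absent by the rule. Some other genes of type 1 cells overlapped. Batf3 lay between 39.7 and 94.2 CPM in cells with Flt3 alone and between 10.3 and 59.3 CPM in cells with both. Wdfy4 lay between 235.5 and 380.5 CPM and between 168 and 309 CPM in the same order. Naaa, also a gene of type 1 cells, did not overlap, with between 196 and 342 CPM and between 86.0 and 159.5 CPM. In gated cDC1 cells Irf8 lay higher still, between 489 and 652 CPM. Mgl2, itself a panel gene, had between 141 and 867 CPM in cells with Flt3 alone and between 905 and 1230.3 CPM in cells with both. No test was made between these sets, since panel genes define them.

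Cells without an Mgl2 UMI carried more Lyz2, Plac8 and Ly6c2 RNA, and also more of some genes of type 1 cells and macrophages. They made up 22.4 and 17.2 percent of cDC2 cells in GAL libraries, against 27.5 and 26 percent of cDC2 cells in WT libraries. Lyz2, the lysozyme of monocytes and macrophages, had, in cells without Mgl2, 7596 and 7258 CPM in GAL libraries, against 5531 and 8524 CPM in WT libraries, and lay between 775 and 2617 CPM in cells with it. Plac8, abundant in monocytes, had, in cells without Mgl2, 282 and 465 CPM in GAL libraries, against 283 and 909.9 CPM in WT libraries, and lay between 25.8 and 119 CPM in cells with it. Ly6c2, the surface antigen of classical monocytes, had, in cells without Mgl2, 344 and 177 CPM in GAL libraries, against 63.7 and 406 CPM in WT libraries, and lay between 6.15 and 30.2 CPM in cells with it. The 2 sets did not overlap over the 4 libraries in any of these genes. Some other genes of monocytes overlapped. Ccr2 lay between 80.2 and 128 CPM in cells without Mgl2 and between 77.5 and 114 CPM in cells with it. The fractalkine receptor Cx3cr1 lay between 13.4 and 56.2 CPM and between 10.1 and 23.7 CPM. The Fc receptor Fcgr1 did not overlap, with between 10.05 and 30.1 CPM in cells without Mgl2 and between 3.58 and 9.29 CPM in cells with it. Nor did Clec4a3, with between 72.2 and 165 CPM and between 19.4 and 39.5 CPM. Of the genes of type 1 cells, Irf8 lay between 108 and 152 CPM in cells without Mgl2 and between 31.3 and 46.1 CPM in cells with it, and the adhesion molecule Cadm1 between 12.04 and 35.8 CPM and between 1.59 and 7.88 CPM, both without overlap. Of the genes of macrophages, the efferocytosis receptor Mertk lay between 37.6 and 80.5 CPM in cells without Mgl2 and between 6.45 and 23.4 CPM in cells with it, without overlap, and Apoe between 176 and 816 CPM and between 58.3 and 221 CPM, with overlap. Class II was lower without Mgl2, with H2-Ab1 between 5481 and 6957 CPM in cells without Mgl2 and between 9538 and 14119.6 CPM in cells with it. Irf4 had between 15.04 and 64.2 CPM in cells without Mgl2 and between 73.1 and 125 CPM in cells with it. Cells without Mgl2 were also shallower, with median UMIs between 5751 and 7969.5, and between 7623 and 8802 with Mgl2. The part of depth in these differences was not tested.

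**Figure D2:**
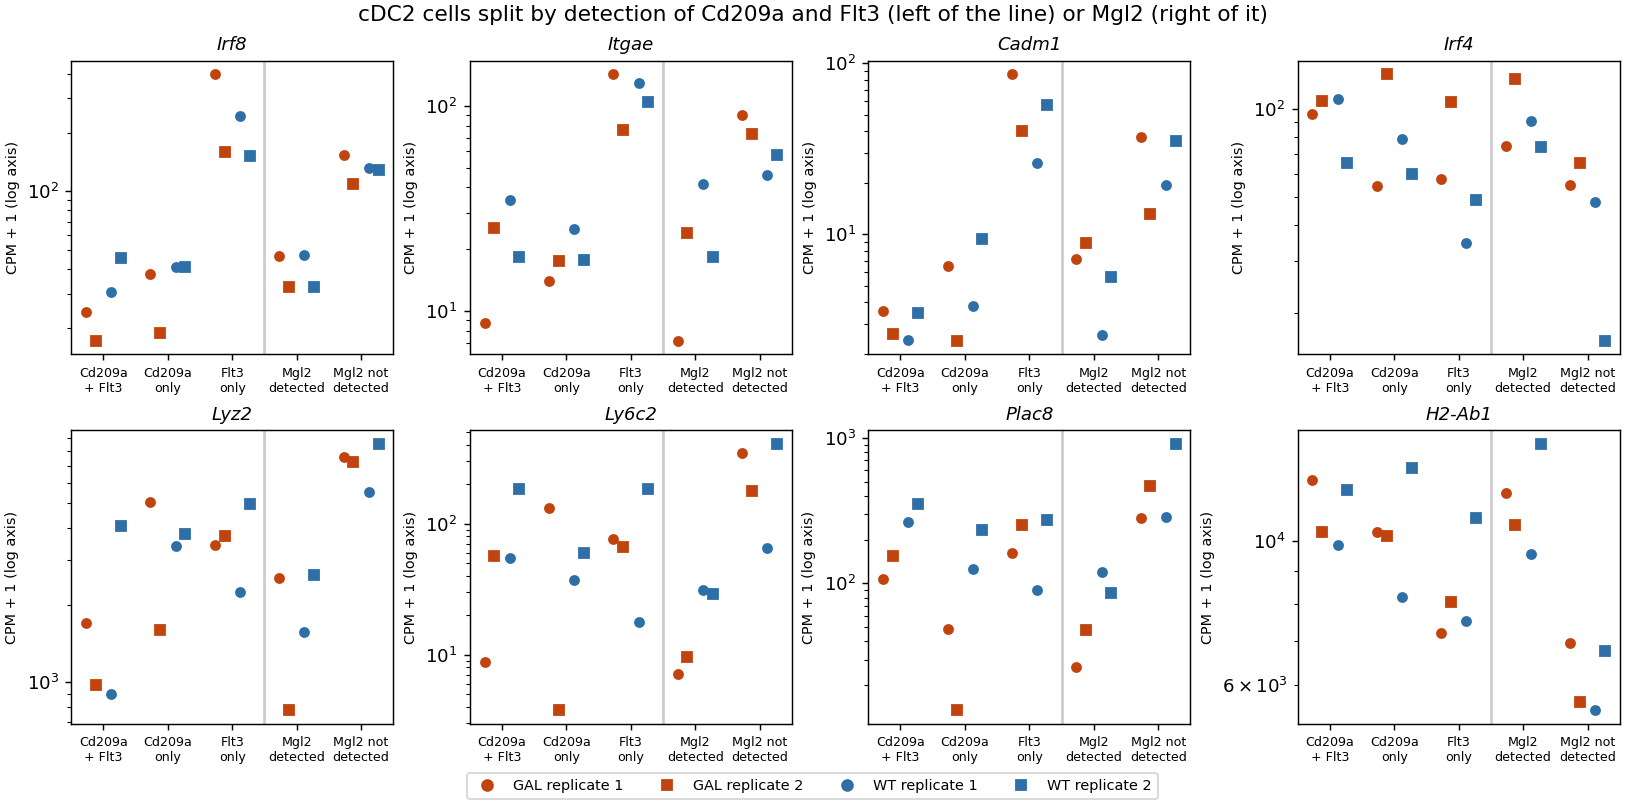
Levels of 8 genes, as CPM + 1 on a log axis, in cDC2 cells split by whether Cd209a and Flt3 were detected (left of the line) or Mgl2 was detected (right of it); each point is 1 library, GAL in orange and WT in blue. Irf8, Itgae and Cadm1 are highest in cells with Flt3 alone, and Lyz2 and Plac8 in cells without Mgl2.

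The maturation genes of the gate also split the cells, and the split is a description with no test. Klf4 was lower in cells with 2 maturation genes, with between 147 and 252 CPM in these and between 320.2 and 683 CPM in cells with none. The monocyte receptor Ccr2 was lower as well, with between 48.9 and 86.1 CPM in cells with 2 maturation genes and between 105 and 156 CPM in cells with none. The 2 sets did not overlap over the libraries in either gene. The costimulatory receptor Cd40, which T cells engage, had between 82.6 and 119 CPM in cells with 2 maturation genes and between 26.4 and 92.3 CPM in cells with none, H2-Ab1 had between 9944 and 14136 CPM and between 7298 and 10015 CPM, and Irf4 had between 75.0 and 138 CPM and between 38.5 and 77.5 CPM. All 3 of these genes overlapped. Ccl17, itself a panel gene of the gate, had 4394 and 3077 CPM in GAL libraries, against 7775 and 4727 CPM in WT libraries in cells with 2 maturation genes, and lay between 1062 and 2587 CPM in cells with none. Cells with 2 maturation genes made up 26.7 and 40.3 percent of cDC2 cells in GAL libraries, against 26.8 and 28 percent of cDC2 cells in WT libraries, with replicate 2 of GAL above the other 3 libraries.

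The share of cDC2 cells did not separate the genotypes. Among all kept cells they made up 0.955 and 1.56 percent in GAL libraries, against 2.18 and 0.973 percent in WT libraries. The mean was 1.26 ± 0.431% in GAL lungs and 1.58 ± 0.856% in WT lungs (SD, n = 2 each; exact two-sided permutation test, p = 0.667, where the design allows no p below 0.3333). The groups overlapped. The 95% Wilson interval, which covers counting error only, ran for the highest library between 1.95 and 2.44%. Among cells with a Ptprc UMI, the pan-leukocyte gene, they made up 1.76 and 2.15 percent in GAL libraries, against 2.98 and 1.31 percent in WT libraries (exact permutation p = 1). Among the dendritic cells of the 3 gates (cDC2, cDC1 and migratory) they made up 40.1 and 35.7 percent in GAL libraries, against 35.7 and 50.8 percent in WT libraries (exact permutation p = 0.667), and the groups overlapped again. The 2 WT libraries differed more from each other than the genotypes did on average among kept cells.

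Some cDC2 cells carried a program of cell division. Cells with at least 4 of 13 genes of the late cell cycle (such as Mki67, Top2a and Birc5) numbered 14 and 20 in GAL libraries, against 55 and 10 in WT libraries, or 12.1 and 10.8 percent in GAL libraries, against 18.0 and 6.67 percent in WT libraries. Thinning each cell to 3000 UMIs left out 8 and 7 shallower cells in GAL libraries, against 24 and 16 shallower cells in WT libraries. The shares were then 7.41 and 6.15 percent in GAL libraries, against 11.7 and 2.99 percent in WT libraries. The groups overlapped at both depths. T cells thinned in the same way had 4.19 and 7.89 percent in GAL libraries, against 23.4 and 6.44 percent in WT libraries. This left out 191 of 645 and 286 of 628 T cells in GAL libraries, against 455 of 673 and 374 of 700 in WT libraries. At full depth T cells had 3.88 and 5.89 percent in GAL libraries, against 9.81 and 3.71 percent in WT libraries. Thinned C1q macrophages had 3.09 and 1.66 percent in GAL libraries, against 3.46 and 0.897 percent in WT libraries. Within the cDC2 cells, Mcm6, a helicase subunit of DNA replication that is not among the 13 genes, lay between 38.6 and 70.9 CPM in dividing cells and between 4.68 and 18.7 CPM in the others. Class II overlapped, with H2-Ab1 between 8223 and 11206 CPM in dividing cells and between 8689 and 12565 CPM in the others. Ly6c2 was at 0 in the dividing cells of 3 libraries and at 2.99 CPM in those of replicate 1 of WT.

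**Figure D3:**
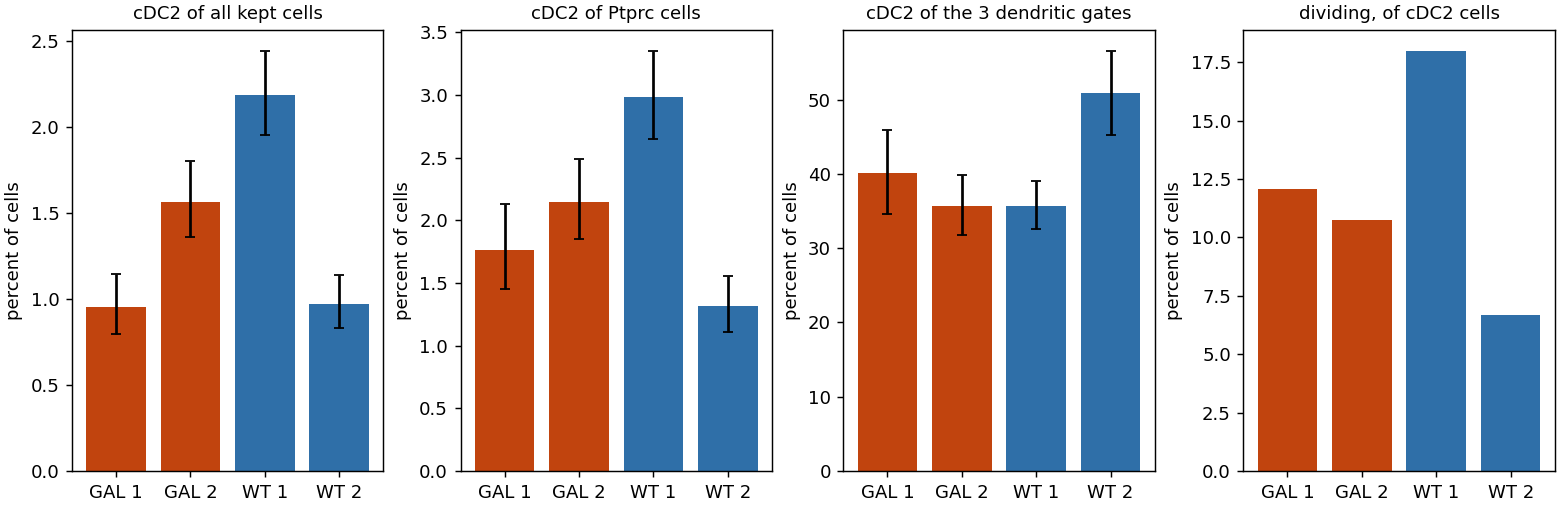
Share of cDC2 cells among all kept cells, among cells with a Ptprc UMI and among 3 dendritic gates (bars with 95% Wilson intervals, which cover counting error only), and share of dividing cells among cDC2 cells, in percent for each library, GAL in orange and WT in blue. The GAL libraries lie within the range of the WT libraries for the share of Ptprc cells and the share of dividing cells.

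No gene passed the test between the genotypes. UMIs were summed over the cDC2 cells of each library and 7793 genes were tested with edgeR's quasi-likelihood test, with 0 called at an adjusted p under 0.05 (0% of genes tested) and a smallest adjusted p of 0.9999. At an unadjusted p under 0.05 there were 116 higher and 59 lower genes. DESeq2 called 0 as well, with 59 genes at an unadjusted p under 0.05 and a smallest adjusted p of 0.0685. Leaving out 1 library gave 22 calls without replicate 1 of GAL, 92 without replicate 2 of GAL, 7 without replicate 1 of WT and 14 without replicate 2 of WT, fits in which the lone library is assumed to vary like the other group. The libraries correlated between 0.929 and 0.956 in log CPM, and the lowest value was that between both GAL libraries. Both GAL libraries lay above both WT libraries in 13.7% of genes tested and below both in 14.1%, and the counts without overlap given for each gene list below are to be read against these shares. Those gene lists were drawn up with earlier results of these data known and are described by their counts and median log2 fold change (GAL over WT), beside a median of −0.000155 over all genes tested. Levels from here on are CPM scaled by TMM factors, which correct for composition.

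Galt itself (chr4:41755228-41758695, plus strand, GRCm38) was low in cDC2 cells of both genotypes, with 19 and 17 UMIs in GAL libraries and 29 and 12 in WT libraries, or 18.3 and 11.3 CPM in GAL libraries, against 10.99 and 11.1 CPM in WT libraries. Its log2 fold change was 0.39 ± 0.41 (SE; unadjusted p = 0.366), and its level does not check the labels, since an edit need not change the RNA. The other genes of galactose metabolism, with the galectins that bind galactose-containing glycans, are described as a list. Of 20 tested members, 3 lay higher and 1 lower without overlap, with a median of 0.02. The galectin Lgals3 had 924 and 950 CPM in GAL libraries, against 989 and 1200.1 CPM in WT libraries and a log2 fold change of −0.22 ± 0.23 (SE; unadjusted p = 0.360). Glb1, the lysosomal enzyme that removes galactose, had 16.4 and 19.9 CPM in GAL libraries, against 8.72 and 14.7 CPM in WT libraries and a log2 fold change of 0.71 ± 0.40 (SE; unadjusted p = 0.114).

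Transcripts of mitochondrial DNA stood higher in GAL cells. All 13 of them had both GAL libraries above both WT libraries, 7 had an unadjusted p under 0.05, none passed the adjusted threshold, and the median log2 fold change was 0.58. The complex I subunit mt-Nd3 (chrM:9459-9806, plus strand) had 208 and 164 CPM in GAL libraries, against 71.2 and 29.5 CPM in WT libraries, with a log2 fold change of 1.83 ± 0.38 (SE; unadjusted p = 0.00133). The groups do not overlap, and replicate 2 of WT lies far below replicate 1 of WT. The complex IV subunit mt-Co3 had 2748 and 3016 CPM in GAL libraries, against 1760.3 and 1451 CPM in WT libraries and a log2 fold change of 0.84 ± 0.24 (SE; unadjusted p = 0.00796), and the ATP synthase subunit mt-Atp6 had 2777 and 2557 CPM in GAL libraries, against 1597 and 1939 CPM in WT libraries and 0.59 ± 0.24 (SE; unadjusted p = 0.0381). The most abundant of the list, the complex IV subunit mt-Co1, had 4689 and 5667 CPM in GAL libraries, against 4139.5 and 3825 CPM in WT libraries, with no overlap and a log2 fold change of 0.38 ± 0.25 (SE; unadjusted p = 0.161). The transcripts are cut out of long shared precursors and are not independent of each other, and nuclear copies of mitochondrial DNA could share their reads.

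The same direction was measured in the whole lung. In cDC2 cells the median mitochondrial share of UMIs was 1.95 and 1.93 percent in GAL libraries, against 1.46 and 1.34 percent in WT libraries. Over all kept cells it was 2.30 and 2.25 percent in GAL libraries, against 1.82 and 1.78 percent in WT libraries. The share of mitochondrial UMIs is also a measure of RNA quality, and its part in the result was not tested. When the change in cDC2 cells was set against the change in all other kept cells of the same libraries, the median difference of the 13 transcripts was 0.16 on the log2 scale, and it was 0.08 against other dendritic cells. The difference was larger for mt-Nd6, the complex I subunit read from the other strand. It had 18 and 19 UMIs in GAL libraries, against 11 and 6 in WT libraries, and a difference from other kept cells of 1.44 ± 0.55 (SE; unadjusted p = 0.00950, edgeR adjusted p = 1).

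Genes of sterol synthesis stood lower in GAL cells. The pathway builds cholesterol out of acetyl-CoA and is driven by the transcription factor Srebf2 when membrane sterol is short. Of 15 tested members all had a negative log2 fold change, 9 had both GAL libraries below both WT libraries, none had both above, 4 had an unadjusted p under 0.05, none passed the adjusted threshold, and the median was −0.54. The isomerase Idi1 (chr13:8885501-8892451, plus strand) had 25.1 and 21.2 CPM in GAL libraries, against 48.1 and 54.4 CPM in WT libraries, with a log2 fold change of −1.15 ± 0.28 (SE; unadjusted p = 0.00312). The demethylases Msmo1 and Cyp51 remove methyl groups late in the pathway. Msmo1 had 14.5 and 13.2 CPM in GAL libraries, against 30.3 and 27.7 CPM in WT libraries, with a log2 fold change of −1.07 ± 0.31 (SE; unadjusted p = 0.00862). Cyp51 had 21.2 and 34.4 CPM in GAL libraries, against 63.7 and 49.8 CPM in WT libraries, with a log2 fold change of −1.02 ± 0.31 (SE; unadjusted p = 0.0116). Fdps, the farnesyl diphosphate synthase, had 37.6 and 27.2 CPM in GAL libraries, against 68.2 and 51.6 CPM in WT libraries and a log2 fold change of −0.91 ± 0.29 (SE; unadjusted p = 0.0134). The 4 genes rest on few UMIs, between 15 and 180 per library.

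The pathway's regulator differed less. Srebf2 had 64.7 and 88.1 CPM in GAL libraries, against 88.3 and 74.7 CPM in WT libraries and a log2 fold change of −0.09 ± 0.25 (SE; unadjusted p = 0.720), with overlapping groups. Set against all other kept cells, the median difference of the list was −0.49 on the log2 scale, beside 0.01 over all genes. Set against other dendritic cells it was −0.20, and for Fdps −0.07.

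**Figure D4:**
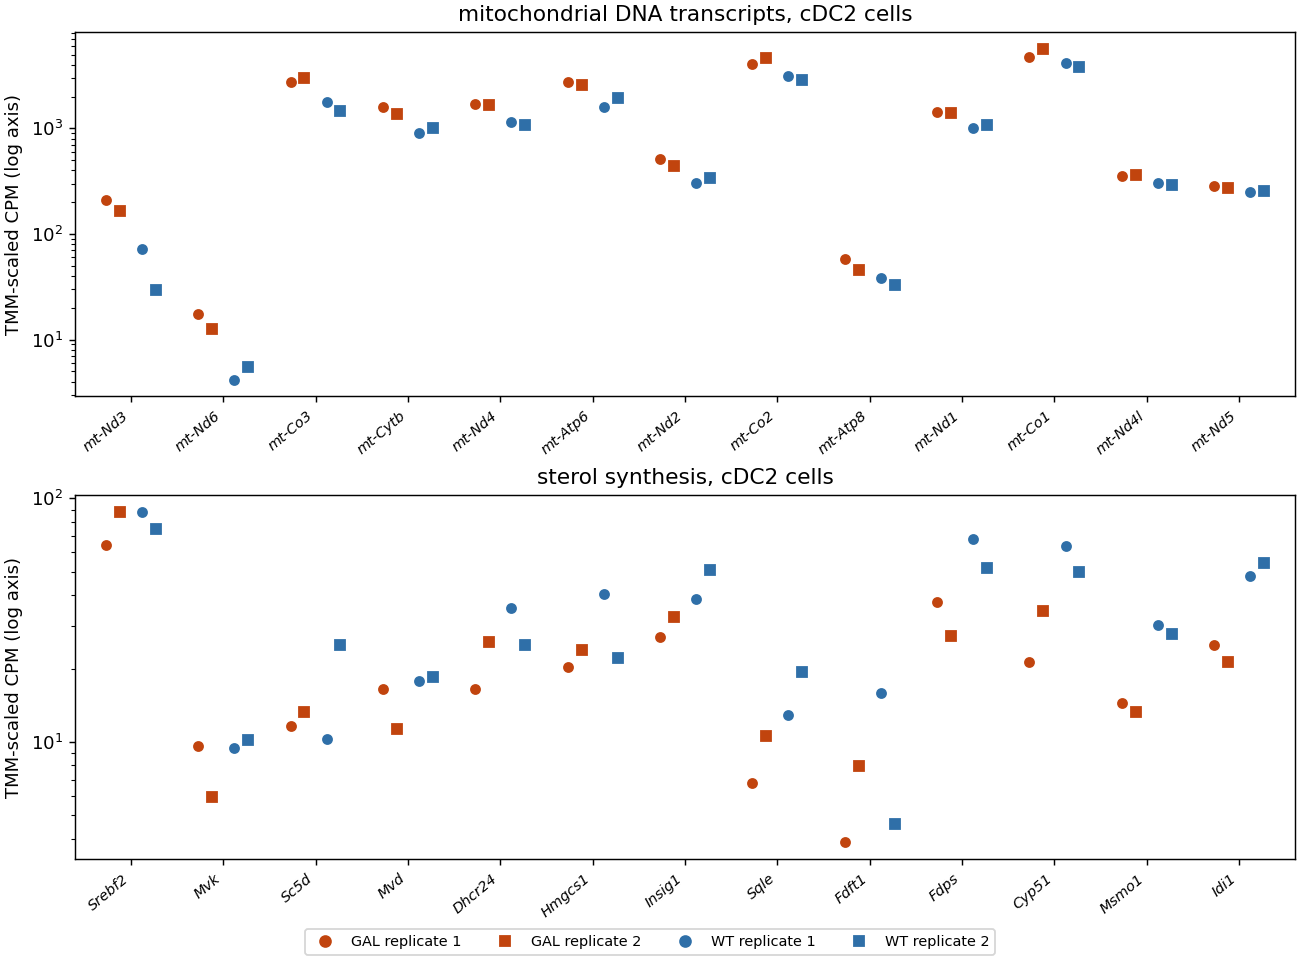
TMM-scaled CPM on a log axis for each tested transcript of mitochondrial DNA (top) and 13 of the 15 tested sterol genes (bottom) in cDC2 cells, ordered by log2 fold change; each point is 1 library, GAL in orange and WT in blue. The GAL points lie above both WT points for all 13 mitochondrial transcripts, and below both for Idi1, Msmo1, Cyp51 and Fdps.

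Promoters are shown for 4 sterol genes because the pathway's members lay lower together. They run 250 bases before to 50 after the start, 5′ to 3′ on the gene's strand, from RefSeq (GRCm38.p6). Capitals mark the letters CCAAT or their reverse complement, which bind the factor NF-Y, and the core TCACNCCAC of the sterol regulatory element or its reverse complement. The windows are chr13:8885356-8885655 for Idi1 (plus strand), chr8:64733529-64733828 for Msmo1 (minus strand), chr5:4104648-4104947 for Cyp51 (minus strand) and chr13:119690101-119690400 for Hmgcs1 (plus strand).
Idi1: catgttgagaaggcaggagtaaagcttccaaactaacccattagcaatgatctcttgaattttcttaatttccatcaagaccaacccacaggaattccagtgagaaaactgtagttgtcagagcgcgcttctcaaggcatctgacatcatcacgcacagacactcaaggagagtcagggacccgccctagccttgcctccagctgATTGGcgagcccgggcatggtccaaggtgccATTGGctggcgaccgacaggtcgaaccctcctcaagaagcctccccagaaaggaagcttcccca
Msmo1: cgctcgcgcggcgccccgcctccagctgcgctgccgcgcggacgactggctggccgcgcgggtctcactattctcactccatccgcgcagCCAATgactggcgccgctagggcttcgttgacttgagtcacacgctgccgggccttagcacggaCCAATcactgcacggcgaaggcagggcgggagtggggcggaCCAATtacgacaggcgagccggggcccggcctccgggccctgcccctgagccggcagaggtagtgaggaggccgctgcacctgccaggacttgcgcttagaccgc
Cyp51: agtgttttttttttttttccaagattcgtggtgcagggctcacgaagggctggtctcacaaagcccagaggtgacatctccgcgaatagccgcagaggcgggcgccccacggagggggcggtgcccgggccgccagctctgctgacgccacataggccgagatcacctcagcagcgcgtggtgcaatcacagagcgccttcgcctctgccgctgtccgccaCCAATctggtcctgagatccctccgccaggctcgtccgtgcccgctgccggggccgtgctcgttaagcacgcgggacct
Hmgcs1: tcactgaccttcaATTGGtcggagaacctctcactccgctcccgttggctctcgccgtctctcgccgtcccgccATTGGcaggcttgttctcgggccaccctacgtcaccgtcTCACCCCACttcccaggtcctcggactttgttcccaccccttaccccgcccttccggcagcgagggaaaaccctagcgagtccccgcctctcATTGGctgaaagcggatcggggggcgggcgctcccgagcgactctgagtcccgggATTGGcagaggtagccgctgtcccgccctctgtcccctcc
Of the 20 sterol genes listed, 14 had a window, with 16 windows in all. These include the untested genes Lss, Dhcr7, Acat2, Nsdhl and Hsd17b7, and Dhcr7 gave several of the windows. Fdps had no window. The counts below thus describe the listed genes and not only those that lay lower. CCAAT or its complement stood in 13 of the 16 windows (81.2%), beside 37.4% of all 32851 windows. The sterol regulatory core stood in 1 of the 16, that of Hmgcs1, beside 1.24% of all windows. Only exact matches of this core were counted, so its absence does not show that a window lacks a similar site. Both strands were searched, the 2 motifs share no letters in these windows, and a match is a description of the sequence only. Hmgcs1, which joins the first building blocks of the pathway, had 20.3 and 23.8 CPM in GAL libraries, against 40.5 and 22.1 CPM in WT libraries, with overlapping groups and a log2 fold change of −0.54 ± 0.36 (SE; unadjusted p = 0.173).

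Genes of antigen presentation overlapped between the genotypes for most members. Of 19 class II members, 1 lay higher and 1 lower without overlap, with a median of 0.06. H2-Ab1 had 10796 and 10709.7 CPM in GAL libraries, against 8059 and 12869 CPM in WT libraries, with a log2 fold change of 0.04 ± 0.30 (SE; unadjusted p = 0.897). Cd74 and the cathepsin inhibitor Cst3 had log2 fold changes of 0.15 ± 0.34 and 0.17 ± 0.29 (SE), and both overlapped. The smallest unadjusted p of the list was that of H2-Eb2, a class II beta chain of low level, with 11.6 and 8.61 CPM in GAL libraries, against 3.79 and 3.69 CPM in WT libraries and 1.39 ± 0.55 (SE; unadjusted p = 0.0345). Of 18 class I members, 1 lay higher and 0 lower without overlap, with a median of −0.08, and the light chain B2m had a log2 fold change of −0.08 ± 0.23 (SE; unadjusted p = 0.745).

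None of the genes that signal to T cells was called. Of 18 costimulatory and checkpoint genes, 3 lay higher and 0 lower without overlap, with a median of 0.18. Cd40 had 88.8 and 114 CPM in GAL libraries, against 53.1 and 82.0 CPM in WT libraries and a log2 fold change of 0.61 ± 0.28 (SE; unadjusted p = 0.0612). The adhesion ligand Icam1 had 236 and 162 CPM in GAL libraries, against 92.1 and 174 CPM in WT libraries, with replicate 1 of WT lowest and the groups overlapping, and a log2 fold change of 0.59 ± 0.34 (SE; unadjusted p = 0.120). Tnfsf9, the ligand of 4-1BB, had 229.7 and 213 CPM in GAL libraries, against 58.0 and 249 CPM in WT libraries, and again replicate 1 of WT was lowest.

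Cytokines gave values on both sides. Of 16 tested, 2 lay higher and 2 lower without overlap, with a median of 0.03. Il6, which drives T cells toward the Th17 and follicular helper fates, had 96.5 and 66.9 CPM in GAL libraries, against 28.8 and 47.9 CPM in WT libraries, with a log2 fold change of 1.12 ± 0.33 (SE; unadjusted p = 0.00866). Osm, oncostatin M of the same cytokine family, had 56.0 and 43.7 CPM in GAL libraries, against 84.5 and 74.7 CPM in WT libraries and a log2 fold change of −0.69 ± 0.25 (SE; unadjusted p = 0.0235), in the opposite direction. Il1b, with 2834 and 2546 CPM in GAL libraries, against 1759.9 and 3052 CPM in WT libraries, overlapped. Among 14 chemokines, 2 lay higher and 2 lower without overlap, with a median of 0.23. The monocyte chemokine Ccl7 had 145 and 66.9 CPM in GAL libraries, against 51.9 and 60.8 CPM in WT libraries and a log2 fold change of 0.90 ± 0.36 (SE; unadjusted p = 0.0366), with replicate 1 of GAL far above the other 3 libraries. Of 16 chemoattractant receptors the median was 0.03. Gpr183, the oxysterol receptor that positions type 2 cells in the spleen, had 102 and 125 CPM in GAL libraries, against 88.3 and 72.8 CPM in WT libraries and a log2 fold change of 0.49 ± 0.24 (SE; unadjusted p = 0.0715).

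Identity genes overlapped for most members. Of 19 lineage receptors outside the gate, 0 lay higher and 2 lower without overlap, with a median of 0.02. Itgax, the CD11c integrin chain, had 166 and 212 CPM in GAL libraries, against 196 and 181 CPM in WT libraries and a log2 fold change of 0.01 ± 0.23 (SE; unadjusted p = 0.973). Csf1r had 40.5 and 46.4 CPM in GAL libraries, against 60.3 and 57.1 CPM in WT libraries and a log2 fold change of −0.43 ± 0.24 (SE; unadjusted p = 0.113). Of 25 transcription factors of dendritic cells, 5 lay higher and 1 lower without overlap, with a median of 0.14, and Irf4 had 69.5 and 127 CPM in GAL libraries, against 75.0 and 61.8 CPM in WT libraries with a log2 fold change of 0.52 ± 0.31 (SE; unadjusted p = 0.132). C-type lectins other than the gate's had a median of −0.03 over 19, of which 1 lay higher and 4 lower without overlap. The fungal receptor Clec4n (dectin-2) had 105 and 95.4 CPM in GAL libraries, against 138 and 171 CPM in WT libraries, with a log2 fold change of −0.62 ± 0.23 (SE; unadjusted p = 0.0279), and Clec4a3 had 39.6 and 29.8 CPM in GAL libraries, against 53.8 and 71.9 CPM in WT libraries, with −0.85 ± 0.29 (SE; unadjusted p = 0.0172).

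Monocyte genes had a median of −0.29 over 19, of which 2 lay higher and 3 lower without overlap. Plac8 had 81.1 and 119.9 CPM in GAL libraries, against 149 and 290.3 CPM in WT libraries and a log2 fold change of −1.11 ± 0.35 (SE; unadjusted p = 0.0140), and was among the 10 genes of smallest unadjusted p in its direction. Lyz2 had 3633 and 1915 CPM in GAL libraries, against 2372 and 4168 CPM in WT libraries and overlapped. Cells without Mgl2 held 63 of 84 and 116 of 181 Plac8 UMIs in GAL libraries, against 169 of 394 and 242 of 315 in WT libraries. The share of these cells among cDC2 cells was lower in both GAL libraries, as was Plac8. Within each genotype the library with the larger share had the lower Plac8 level. The part of this share in the result was not tested. Toll-like receptors and their adaptors had a median of 0.21 over 13, with 3 higher and 0 lower without overlap. The Toll-like receptor relative Cd180 had 24.1 and 41.1 CPM in GAL libraries, against 11.7 and 23.04 CPM in WT libraries and a log2 fold change of 1.00 ± 0.42 (SE; unadjusted p = 0.0457).

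No gene of acute signalling or stress was called. Of 20 NF-kB genes 18 had a positive log2 fold change, 6 lay higher and 0 lower without overlap, and the median was 0.28. The inhibitor Nfkbiz had 518 and 449.8 CPM in GAL libraries, against 258 and 385 CPM in WT libraries and a log2 fold change of 0.59 ± 0.26 (SE; unadjusted p = 0.0549), and the subunit Rela had 72.4 and 92.1 CPM in GAL libraries, against 59.9 and 60.8 CPM in WT libraries and 0.45 ± 0.24 (SE; unadjusted p = 0.0921). Of 27 immediate early genes, which rise within minutes of a stimulus or of tissue handling, 5 lay higher and 0 lower without overlap, with a median of 0.16. Egr1 had 550.2 and 298 CPM in GAL libraries, against 199 and 297 CPM in WT libraries and a log2 fold change of 0.78 ± 0.34 (SE; unadjusted p = 0.0514). Heat shock genes had a median of 0.02 over 18, and Hspa1b, an inducible member with a near-identical copy in Hspa1a, had 87.8 and 148 CPM in GAL libraries, against 59.1 and 72.8 CPM in WT libraries with a log2 fold change of 0.86 ± 0.30 (SE; unadjusted p = 0.0201). Set against all other kept cells, the medians were 0.19 for NF-kB, −0.01 for immediate early and −0.19 for heat shock genes.

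No target of the glucocorticoid receptor was called. Of 16 tested, 4 lay higher and 0 lower without overlap, 3 had an unadjusted p under 0.05, and the median was 0.30. The factor Zbtb16 had 26 and 18 UMIs in GAL libraries, against 8 and 7 in WT libraries, with a log2 fold change of 2.06 ± 0.58 (SE; unadjusted p = 0.00762). The sulfotransferase Sult1a1 had 66.6 and 40.4 CPM in GAL libraries, against 16.7 and 28.6 CPM in WT libraries and 1.28 ± 0.38 (SE; unadjusted p = 0.00918), and the receptor's co-chaperone Fkbp5 had 46.3 and 21.9 CPM in GAL libraries, against 16.7 and 9.22 CPM in WT libraries and 1.29 ± 0.45 (SE; unadjusted p = 0.0213). Replicate 1 of GAL was the highest library for all 3 genes. The difference from all other kept cells had a median of −0.08.

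The remaining lists held no called gene. The median was −0.12 over 20 interferon response genes, of which 2 lay higher and 5 lower without overlap. Oasl1, an antiviral gene, had 17.4 and 27.2 CPM in GAL libraries, against 9.10 and 10.1 CPM in WT libraries with 1.24 ± 0.38 (SE; unadjusted p = 0.0113), and the membrane protein Ifitm3 had 787 and 637 CPM in GAL libraries, against 575 and 1355 CPM in WT libraries with −0.44 ± 0.38 (SE; unadjusted p = 0.287). The unfolded protein response had a median of −0.21 over 21, with 0 higher and 5 lower without overlap, and the chaperone Hspa5 had a log2 fold change of −0.16 ± 0.23 (SE; unadjusted p = 0.505). Glycolysis had a median of −0.10 over 17, with 2 higher and 6 lower without overlap. Its first enzyme Hk2 had 238 and 213 CPM in GAL libraries, against 173 and 134 CPM in WT libraries with 0.55 ± 0.23 (SE; unadjusted p = 0.0468), and its regulator Hif1a had 76.2 and 78.2 CPM in GAL libraries, against 111 and 100.5 CPM in WT libraries with −0.46 ± 0.22 (SE; unadjusted p = 0.0699). Lysosomal genes and cathepsins had a median of 0.06 over 23, Fc and complement receptors −0.05 over 14, genes of type 2 responses −0.02 over 13, clock genes 0.19 over 9 and cell division genes −0.23 over 24.

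The 10 genes of smallest unadjusted p in each direction, without overlap and with a mean of at least 50 CPM, did not pass the adjusted threshold and are given as values. Beside mt-Nd3, mt-Co3, Il6 and Hspa1b, the higher ones were led by Basp1, a membrane protein better known in neurons, with 366 and 543 CPM in GAL libraries, against 207 and 241 CPM in WT libraries and a log2 fold change of 1.02 ± 0.26 (SE; unadjusted p = 0.00473). Fgfr1, a fibroblast growth factor receptor, had 131 and 117 CPM in GAL libraries, against 56.1 and 74.7 CPM in WT libraries and 0.94 ± 0.24 (SE; unadjusted p = 0.00500). Pdcd4, an inhibitor of translation, had 93.6 and 91.4 CPM in GAL libraries, against 51.9 and 56.2 CPM in WT libraries and 0.78 ± 0.22 (SE; unadjusted p = 0.00806). The prostaglandin E2 receptor Ptger4 had 140 and 158 CPM in GAL libraries, against 94.0 and 97.7 CPM in WT libraries and 0.64 ± 0.22 (SE; unadjusted p = 0.0199), and the Rab regulator Tbc1d4 had 220.1 and 427 CPM in GAL libraries, against 179.6 and 167 CPM in WT libraries and 0.90 ± 0.32 (SE; unadjusted p = 0.0221), highest in replicate 2 of GAL. Tbc1d4 is also on the list of genes of migratory dendritic cells. Replicate 2 of GAL had the largest share of cDC2 cells with 2 maturation genes, 40.3%, and the part of that share was not tested. Igkc, an immunoglobulin chain made by B cells, had 54.1 and 280.2 CPM in GAL libraries, against 52.7 and 34.1 CPM in WT libraries and 1.93 ± 0.64 (SE; unadjusted p = 0.0166), and replicate 2 of GAL alone was high.

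The lower ones, beside Plac8, Osm and Clec4n, began with the carbonic anhydrase Car4, with 30.9 and 48.4 CPM in GAL libraries, against 78.4 and 69.1 CPM in WT libraries and a log2 fold change of −0.88 ± 0.28 (SE; unadjusted p = 0.0139). Car4 is best known in the aerocyte capillary cells of the lung, and is on the lists of both endothelial and alveolar macrophage genes used here. The vitamin D receptor Vdr had 47.3 and 45.7 CPM in GAL libraries, against 75.8 and 72.8 CPM in WT libraries and −0.68 ± 0.23 (SE; unadjusted p = 0.0186), with both libraries of each genotype close together. AA467197, known as Nmes1, had 405 and 482 CPM in GAL libraries, against 656 and 712 CPM in WT libraries and −0.62 ± 0.23 (SE; unadjusted p = 0.0251). Ramp3, which modifies the calcitonin receptor-like receptor, had 84.0 and 88.1 CPM in GAL libraries, against 139.8 and 121 CPM in WT libraries and −0.60 ± 0.22 (SE; unadjusted p = 0.0272). The linker histone Hist1h1e, the lipase inhibitor G0s2 and the protease Nrd1 had log2 fold changes of −0.91 ± 0.31, −1.15 ± 0.43 and −0.62 ± 0.24 (SE).

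To ask whether a change in cDC2 cells differed from that in the rest of the lung, an interaction was tested on paired sums of the same libraries. The other kept cells were summed over all their types, so that sum also moves with the mix of cell types in a library. A difference can therefore come from either sum, and the part of the cell mix was not tested. Of 16427 genes 31 were called (0.189%), 10 with a more positive and 21 with a more negative change in cDC2 cells. For 21 of the 31, a single cell held at least 25% of all UMIs of the gene in cDC2 cells. Hba-a2, a hemoglobin chain, had 179 UMIs in all, 149 of them in 1 cell of replicate 2 of GAL. DESeq2 called 1 gene, the matrix protease Mmp3, a product of fibroblasts. Mmp3 had 112 and 27 UMIs in cDC2 cells of GAL libraries, in 10 and 5 cells, against 8 and 2 UMIs in WT libraries, in 4 cells and 1 cell. Its difference was 3.49 ± 0.43 (SE; edgeR adjusted p = 9.57e-13). Against other dendritic cells 1 of 9292 genes was called (0.0108%), Mucl1, with all of its 90 UMIs in 1 cell, and DESeq2 called 0. At an unadjusted p under 0.05 that comparison had 276 genes by edgeR and 43 by DESeq2.

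Among the 10 called genes with a more positive change, Il18rap (chr1:40515362-40551705, plus strand) was the one in which no cell held 25% of the UMIs. It encodes the accessory chain of the interleukin 18 receptor, which is best known in natural killer and T cells. It was found in 17 and 38 cDC2 cells of GAL libraries, or 14.7 and 20.4%, against 19 and 9 cells of WT libraries, or 6.21 and 6%. No cell held more than 4 of its UMIs. The groups did not overlap. After thinning to 3000 UMIs the shares were 5.56 and 11.2 percent in GAL libraries, against 2.84 and 2.24 percent in WT libraries, again without overlap. The level was 20.3 and 35.1 CPM in GAL libraries, against 8.34 and 10.1 CPM in WT libraries, with a log2 fold change of 1.63 ± 0.39 (SE; unadjusted p = 0.00320) and an edgeR adjusted p of 1.000 in cDC2 cells alone. The difference from all other kept cells was 1.75 ± 0.43 (SE; edgeR adjusted p = 0.0281), and that from other dendritic cells was 2.07 ± 0.52 (edgeR adjusted p = 1.000). The call was lost with each library left out, with doublets removed, with the 2 stricter gates, with thinned cells and with DESeq2, and kept with other size factors, without the low-count filter and with a mitochondrial limit of 10%, with adjusted p-values between 0.0285 and 1 over all of these. Where the call was lost the difference was 1.502 to 2.07, other than with thinned cells, where it was 0.75. In cDC1 cells the shares were 0.725 and 3.54 percent in GAL libraries, against 1.19 and 4.08 percent in WT libraries, and in T cells, which use the gene, 11.9 and 13.4 percent in GAL libraries, against 13.97 and 9.57 percent in WT libraries. In C1q macrophages they lay between 0.984 and 3.36%, at a median depth between 4369 and 6448 UMIs. The partner chain Il18r1 had 4.82 and 10.3 CPM in GAL libraries, against 7.25 and 1.77 CPM in WT libraries (CPM of all UMIs of cDC2 cells), and overlapped.

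Tbx21 (chr11:97098071-97115331, minus strand), which encodes T-bet, a factor reported to mark an anti-inflammatory branch of type 2 cells in mice, was also detected more often in GAL libraries. It was chosen after its values were seen. UMIs were found in 5 and 10 cDC2 cells of GAL libraries, or 4.31 and 5.38%, against 2 cells and 1 cell of WT libraries, or 0.654 and 0.667%. The shares in C1q macrophages, which should lack it, were 0.262 and 0.177 percent in GAL libraries, against 0.492 and 0 percent in WT libraries. Ly6c2 monocytes had 3.33 and 4.84 percent in GAL libraries, against 2.48 and 6.47 percent in WT libraries, a range that takes in the shares of GAL cDC2 cells, and cDC1 cells had 1.45 and 0 percent in GAL libraries, against 1.19 and 3.06 percent in WT libraries. Of the GAL cells with Tbx21, 1 of 5 and 0 of 10 also had a UMI of Nkg7, a gene of natural killer and T cells, and none had a UMI of the T cell receptor gene Trac. The counts were too low for the main test. Without the low-count filter the log2 fold change was 2.80 ± 0.97 (SE; unadjusted p = 0.00402, edgeR adjusted p = 0.530). After thinning to 3000 UMIs, 4 cells and 1 cell of GAL libraries had a UMI, against 0 and 0 of WT libraries. The GAL shares were then 3.70 and 0.559 percent, against 4.31 and 5.38 percent at full depth. In replicate 2 of GAL, 1 cell is the smallest share above 0 that its cell number can show. The other tested genes listed for the T-bet and ESAM branches, 4 in number, had a median log2 fold change of 0.09.

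**Figure D5:**
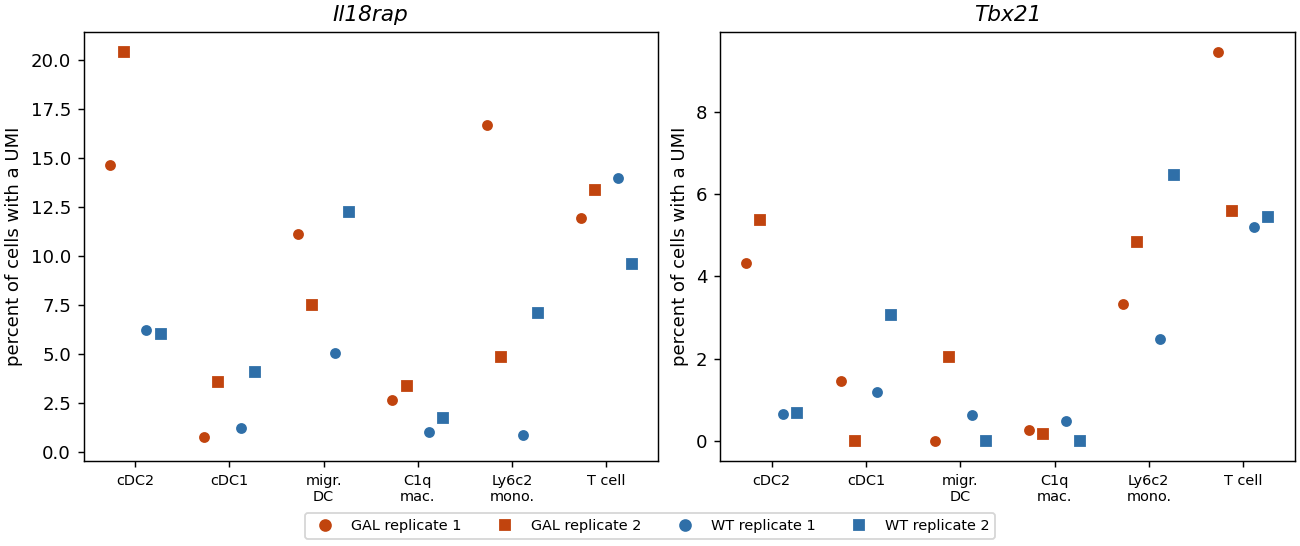
Percent of cells with at least 1 UMI of Il18rap (left) and Tbx21 (right) in 6 gated cell types; each point is 1 library, GAL in orange and WT in blue. In cDC2 cells both GAL libraries lie above both WT libraries for both genes, with Il18rap at 14.7 and 20.4% in GAL and 6.21 and 6% in WT.

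RNA of other cells in the cDC2 sums differed between libraries. The 17 epithelial genes summed to 6136 and 707 CPM in GAL libraries, against 1456 and 777 CPM in WT libraries, with replicate 1 of GAL highest. The 18 stromal genes summed to 2584 and 777 CPM in GAL libraries, against 812 and 1415 CPM in WT libraries and the 16 endothelial genes to 596 and 179 CPM in GAL libraries, against 255 and 297 CPM in WT libraries, again with replicate 1 of GAL highest. The 17 T and natural killer genes summed to 245 and 290.1 CPM in GAL libraries, against 264 and 315 CPM in WT libraries, and Nkg7, one of them, had 1.93 and 1.32 CPM in GAL libraries, against 12.51 and 8.30 CPM in WT libraries. The 14 B cell genes summed to 122 and 331 CPM in GAL libraries, against 134 and 118 CPM in WT libraries, with replicate 2 of GAL highest, as for Igkc. The 15 alveolar macrophage genes summed to 2492 and 2674 CPM in GAL libraries, against 5903 and 2024 CPM in WT libraries, with replicate 1 of WT highest. The 11 cDC1 genes outside the gate summed to 566 and 546 CPM in GAL libraries, against 718 and 498 CPM in WT libraries, the 16 genes of migratory cells to 2686 and 3253 CPM in GAL libraries, against 2198 and 2752 CPM in WT libraries, the 10 of plasmacytoid cells to 231 and 248 CPM in GAL libraries, against 328 and 224 CPM in WT libraries, the 16 of macrophages to 1032 and 734 CPM in GAL libraries, against 801 and 1196 CPM in WT libraries and the 15 of neutrophils to 717 and 947 CPM in GAL libraries, against 769 and 1126 CPM in WT libraries. The 11 erythroid and platelet genes summed to 41.5 and 470.1 CPM in GAL libraries, against 42.7 and 78.9 CPM in WT libraries. For the hemoglobin gene Hbb-bs 358 of 371 UMIs of replicate 2 of GAL were in 1 cell. Some defining markers were not found: Ncr1 and Klrb1c of natural killer cells and Ly6g of neutrophils were at 0 in 3 of the 4 libraries, Pax5 of B cells in both GAL libraries, and Alas2 of red cells in all 4. The part of such RNA in the comparisons of genotypes was not tested.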

How the data were processed

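Whole-lung single-cell libraries of 2 GAL and 2 WT samples were prepared on a droplet system with UMIs, per the labels' protocols. The submitters' processing notes name fastp, STAR, Seurat, GRCm38 and mm10. The authors deposited matrices of raw UMI counts, whole numbers in which no barcode totals under 500 UMIs. Barcodes with at least 300 genes and at most 20% mitochondrial UMIs were kept. Doublets were not removed in the main result. An alternative removed the highest Scrublet scores (scanpy 1.11.5), up to 0.8% per 1000 cells. It took out 21 of 116 and 19 of 186 cDC2 cells in GAL libraries, against 57 of 306 and 30 of 150 in WT libraries. Of all kept cells it took out 1181 of 12148 and 1130 of 11887 in GAL libraries, against 1571 of 14012 and 1901 of 15416 in WT libraries. The cell subsets were described with these cells included. No cDC2 barcode was shared between libraries, and between 104 and 146 kept barcodes were shared per pair. Counts of 32285 genes were summed per library over gated cells and tested with edgeR 4.0.16 (quasi-likelihood, TMM, filterByExpr, Benjamini-Hochberg) in R 4.3.3, leaving out the 22 genes of the gate, with DESeq2 1.42.0 as alternative. The interaction fits used library as a block. The fits were tested on simulated data. Gene IDs were placed with GENCODE vM21, in which 32235 of 32285 matched. A binomial interval covers counting error only.

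Named genes were Galt, the 10 genes of smallest unadjusted p in each direction with separated groups and a mean of at least 50 CPM (none being called), and of each list up to 4 members of highest mean and 2 of smallest p; levels of gate genes and markers were described without a test. A few listed genes are not reported here by value and stay in the counts and medians of their lists. Outside that rule, and after their values were seen, Cyp51, Hmgcs1, Fkbp5, mt-Nd6, Mmp3, Il18rap, Il18r1, Tbx21 and the genes of the cell subsets were named. The cells, the gene lists and the genes looked for were chosen with earlier results of these data known. The T cells used as background had UMIs of Cd3e and Trac and none of H2-Aa or Cd79a. Alternatives were other size factors, no low-count filter, each library left out, doublets removed, at least 3 panel genes, no C1q UMI, a mitochondrial limit of 10% and cells thinned to 1500 UMIs.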

Additional observations from a re-analysis of the deposited data

Results flagged for a closer look

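The change between GAL and WT in cDC2 cells differed from that in all other kept cells of the same libraries, by the edgeR interaction test, for 31 genes, and from that in other dendritic cells for 1. The values are differences of log2 fold changes, cDC2 cells minus the other cells, so that a positive one means a more positive change in cDC2 cells. For 21 genes 1 cell held at least 25% of the gene's UMIs in cDC2 cells: Hba-a2 3.72, Hbb-bs 3.13, Hba-a1 3.18, Mmp3 3.49, Mucl1 16.16, Ighg2c 3.57, Saa3 2.64, Il12b 1.51 and Sftpa1 1.36 among those more positive, and Acta2 −2.89, Tagln −2.35, Igfbp5 −3.17, Rarres2 −1.79, Ccl20 −13.96, Actc1 −5.16, Ccl24 −10.90, Igfbp6 −1.18, Ereg −1.38, Fxyd3 −4.90, Myh11 −2.87 and Cfb −1.41 among those more negative. Mucl1 was also the gene that differed from other dendritic cells, by 16.30. In Mucl1, Ccl20 and Ccl24 all UMIs came from 1 library, so these differences have no bounded size. For the other 10 genes no cell held as much. Il18rap 1.75 was the one more positive, and Ccn1 −1.53, Hspb1 −1.34, Aldh1a1 −1.39, Nkg7 −2.55, Fmo2 −1.13, Gpx3 −1.11, Ppp1r14a −1.22, C3 −1.07 and Ifitm1 −1.10 were more negative. Il18rap had UMIs in 83 cDC2 cells in all and Nkg7, a gene of natural killer and T cells, in 26. Acta2, Tagln and Myh11 are genes of smooth muscle. In cDC2 cells they had most UMIs in replicate 2 of WT, with 119, 69 and 19. Of these, 1 cell held 91, 53 and 17 for the respective gene. The summed stromal RNA in cDC2 cells was highest in another library, replicate 1 of GAL. The part of that RNA in these differences was not tested. The sums of all other kept cells differed between libraries too. Acta2 had 20045 and 5111 UMIs there in GAL libraries, against 4151 and 10661 in WT libraries. Fmo2 had 47222 and 15362 in GAL libraries, against 9671 and 13129 in WT libraries. C3, in contrast, was highest in replicate 1 of WT, with 21407 UMIs. The part of the mix of cell types in those sums was not tested. Groups of 2 libraries are too small to look for a library that stands apart by value.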

How the results depend on the processing

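Limits come from 2 libraries per genotype, from 116 to 306 cells each, and from RNA of other cells in the cDC2 sums, which differed between libraries. Whether that RNA was free or came from doublets was not tested. The count of 0 genes between genotypes stood under other size factors, DESeq2, doublet removal and each stricter gate, rose to 44 without the low-count filter and was between 7 and 92 with 1 library left out. The 31 genes that differed from all other kept cells became 1 with DESeq2, 10 with no C1q UMI and 11 with cells thinned to 1500 UMIs, and between 16 and 52 with 1 library left out. The 1 gene that differed from other dendritic cells became 0 with DESeq2, 3 with other size factors, 44 without the low-count filter and between 3 and 71 with 1 library left out. The share of cDC2 cells, as GAL minus WT in percentage points, was −0.319 among kept cells and between −0.924 and 0.287 with 1 library left out; among Ptprc cells it was −0.192 and between −1.03 and 0.642. The log2 fold changes of the surfactant genes turned negative without replicate 1 of GAL, and with 1 library left out ranged over −5.34 to 5.63 for Sftpc and −4.59 to 5.38 for Sftpa1. Differences from all other kept cells changed sign with at least 3 panel genes for Igfbp5 1.19, Rarres2 0.15, Fxyd3 7.47, Saa3 −1.78, Sftpa1 −2.54 and Igfbp6 0.44, with cells thinned to 1500 UMIs for Ereg 1.08, Rarres2 1.07, Cfb 1.503, C3 1.42 and Acta2 2.13, with no C1q UMI for Hbb-bs −0.10, Hba-a1 −0.032 and Hba-a2 −0.42, with DESeq2 for Ighg2c −0.30, with doublets removed for Acta2 0.67. With 1 library left out they changed sign over the ranges Fxyd3 −10.72 to 5.57, Hba-a1 −0.60 to 4.72, Il12b −0.77 to 3.35, Ighg2c −5.31 to 3.68, Sftpa1 −2.68 to 3.17 and Myh11 −12.48 to 0.43. The cause of these changes was not tested. No paired analysis was possible because the labels give the libraries no replicate numbers; the numbers 1 and 2 used here follow the order of deposition and mark no pair.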

Other observations

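Mki67, a marker of cycling cells, was found in 42.2 and 49.5 percent of cDC2 cells in GAL libraries, against 38.6 and 33.3 percent of cDC2 cells in WT libraries, in cells with median depths of 8420 and 8606 UMIs in GAL libraries and 7578 and 7235 UMIs in WT libraries, and in 5.27 and 10.5 percent of T cells in GAL libraries, against 15.9 and 6.86 percent of T cells in WT libraries. Among cDC2 cells with at most 1 of the other 12 division genes, the share with an Mki67 UMI was 32.6 and 43.3 percent in GAL libraries, against 27.3 and 28.2 percent in WT libraries. Among such T cells it was 1.52 and 4.59 percent in GAL libraries, against 6.55 and 2.93 percent in WT libraries, and among such migratory dendritic cells 45.5 and 52.3 percent in GAL libraries, against 35.1 and 55.3 percent in WT libraries. At most 4.08% of migratory cells were dividing in any library. After thinning to 3000 UMIs the share of cDC2 cells with an Mki67 UMI was 26.9 and 29.1 percent in GAL libraries, against 24.8 and 23.9 percent in WT libraries.

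The following genes were chosen after their values were seen. Cd209e, a further member of the Cd209 cluster outside the gate, was found in 0 and 5.38 percent of cells in GAL libraries, against 18.0 and 1.33 percent of cells in WT libraries, at 0 and 7.30 CPM in GAL libraries, against 64.4 and 1.77 CPM in WT libraries. The gate gene Cd209d was highest in the same library, replicate 1 of WT. Il4i1, an amino acid oxidase among the maturation genes of the gate, had 3.86 and 10.3 CPM in GAL libraries, against 58.8 and 4.43 CPM in WT libraries, again with replicate 1 of WT alone high, and lay between 331 and 460 CPM in migratory cells. Retnla, a target of interleukin 4 signalling, had 236 and 10 UMIs in cDC2 cells of GAL libraries, against 366 and 325 in WT libraries, with replicate 2 of GAL lowest.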
